A study of Homo sapiens with 24 samples.

Results

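SET2 is an established human megakaryoblastic cell line that was derived from a myeloproliferative neoplasm and grows on signals from the kinase JAK2. Described here are its 2 states without a JAK inhibitor. Naive cells were cultured with no vehicle and no drug. The other cells came from the same naive line and were exposed to DMSO, the solvent of the inhibitors, for 4 h as the vehicle control of acute drug exposure. Members were chosen by their labels alone, and the 6 libraries (3 with DMSO, 3 naive) are part of a series of 24 libraries in 8 groups of 3, the other 6 groups being cells with INC424 for 4 h or 48 h and 4 lines kept in a JAK inhibitor. Both groups used RPMI1640 with 20% FCS, per the labels, which give no DMSO concentration. Whether the 3 libraries of a group came from different cultures is also not stated, and p-values then measure only the spread between these libraries, which may be technical. The solvent and anything else that differed in the handling or harvest of the 2 groups cannot be told apart.

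Cells read the state of their medium through several well known circuits. When amino acids run short or proteins misfold, kinases that phosphorylate the initiation factor eIF2 favour translation of the transcription factor ATF4, which induces amino acid synthesis, transporters and tRNA charging, and, when the stress persists, DDIT3 and CHAC1. Glucose metabolites draw MondoA with its partner MLX to TXNIP and ARRDC4, and growth factor signalling through PI3K and AKT holds FOXO factors, and with them genes such as CCNG2 and PIK3IP1, inactive. Cytokine receptors signal through JAK2 and STAT5 to PIM1, CISH and the SOCS genes, and ERK signalling drives EGR1 and DUSP6. MYC drives genes of ribosome assembly, and E2F factors drive genes of S phase.

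Poly(A) RNA was sequenced to 31549970, 32302943 and 33566077 reads assigned to genes in the DMSO libraries and to 26252558, 26827082 and 28852363 in the naive libraries. Values are normalised read counts, and means are given ± SD over 3 libraries (n = 3). The log2 libraries correlated at 0.9838 to 0.9884 within the DMSO group, 0.9738 to 0.9853 within the naive group and 0.9423 to 0.9529 between them (Pearson's r across the genes tested, which are not independent replicates), and the first principal component, with 62.5% of the variance, separated the groups. Naive library 1 stood apart from the other 2 naive libraries on the second component. Markers of the line were present in all 6 libraries, with ITGA2B at 48762 to 62733 with DMSO and 88826 to 107662 in naive cells, GATA1 at 5140 to 6803 and 7328 to 8189, and KIT at 14807 to 15822 and 21612 to 24656. These 3, CD34, NFE2, GATA2 and JAK2 were called lower with DMSO and TAL1 higher, while PF4, a platelet granule gene, was at 0 in all 6. The summed level of 10 squamous epithelium markers, of which 9 are in the table, was 336.8 to 1513 with DMSO and 84.59 to 562.9 in naive cells, and SPRR1B was at 0 in all 6. Of the 6 tested, KRT6A alone passed, with overlapping groups, and the part of this RNA in the results below was not tested.

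The 2 control states differed in a large share of the transcriptome. Of 17434 genes tested, with a value of at least 10 in at least 3 of the 6 libraries, 3299 were higher with DMSO (18.9% of those tested) and 3914 were lower (22.5%), or 41.4% in all (limma on log2 values, Benjamini-Hochberg adjusted p below 0.05, two-sided). A change of at least 2-fold was called for 14.9%, with 1172 genes higher and 1432 lower, and of at least 4-fold for 226 and 297. The median log2 difference over all genes tested was 0.0044, and differences below are log2 with DMSO minus naive ± standard error unless a fold is named. The values of the groups did not overlap for 9136 of the 17434 genes tested, and for 7041 of the 7213 called, where the call itself nearly fixes this. The median and the shares of 18.9% higher and 22.5% lower over all genes tested are the background for every gene list below. No test was made of a list as a whole, and a list with shares near these differs little from all genes.

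**Figure D1:**
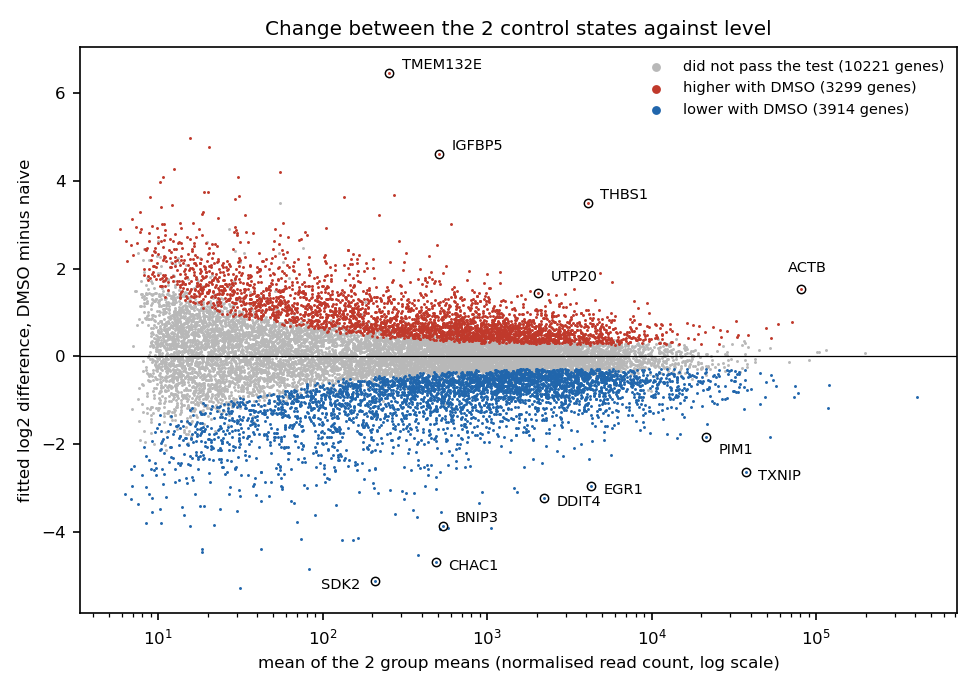
Each point is a gene; the x axis is the mean of the 2 group means (normalised read count, log scale) and the y axis the fitted log2 difference, DMSO minus naive. Red marks the 3299 genes called higher with DMSO, blue the 3914 called lower and grey the 10221 that did not pass, and circled genes are among those described in the text, with TMEM132E at 6.46 and SDK2 at -5.11.

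ATF4 target genes were lower with DMSO than in naive cells almost throughout. Of 28 list members tested, 25 fell and 0 rose (median log2 -1.11), against 22.5% and 18.9% of all genes tested. CHAC1, which degrades glutathione, was 23.6, 39.4 and 49.03 in DMSO libraries 1 to 3 and 905, 924 and 981 in naive libraries 1 to 3, a 25.1-fold lower mean with DMSO (log2 -4.67 ± 0.24, limma adjusted p = 4.4e-07). Every naive value was over every DMSO value by a wide margin, and the naive libraries differed little among themselves. DDIT3, the transcription factor CHOP, was 354, 274 and 349 with DMSO and 2206, 2733 and 2857 in naive cells (log2 -2.99 ± 0.15). DDIT4, an inhibitor of mTORC1, was 479, 398 and 406 against 3907, 4312 and 3746 (log2 -3.22 ± 0.12), and SESN2, a leucine sensor that also restrains mTORC1, was 192, 189 and 197 against 1760.5, 1566 and 1629.6 (log2 -3.09 ± 0.13). In both genes the highest DMSO library lay far under the lowest naive one. GDF15, a secreted stress factor, had fewer reads and a wider spread, at 22.4 ± 14.8 against 159 ± 17.3 (log2 -2.93 ± 0.38).

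ATF4 itself and ASNS, an asparagine synthetase, are among the list members counted above and were picked for naming after their values were seen. ATF4 mRNA was 8651 ± 539.7 with DMSO and 22573 ± 1636 in naive cells (log2 -1.38 ± 0.105), and ASNS was 2011 ± 107 against 3832 ± 328 (log2 -0.93 ± 0.11). Outside the list, 2 of the 12 largest falls of all genes were INHBE, an activin subunit (log2 -4.52 ± 0.28), and ADM2, a peptide hormone (log2 -3.902 ± 0.21), both known to be induced through ATF4. INHBE was 51.3, 24.6 and 22.9 with DMSO against 808, 673 and 707 in naive cells.

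Enzymes and carriers that supply amino acids to translation mostly moved with ATF4. Among aminoacyl-tRNA synthetases, which load amino acids onto tRNA, 11 of 20 fell and 3 rose (median log2 -0.39). AARS, for alanine, was 12336, 12773 and 12904 with DMSO and 29930.3, 27012 and 25829.6 in naive cells (log2 -1.12 ± 0.102), and the groups lay well apart. CARS, for cysteine, was 4346 ± 98.7 against 10179 ± 1337 (log2 -1.22 ± 0.11), WARS, for tryptophan, 18136 ± 544 against 35563 ± 5387 (log2 -0.96 ± 0.12), and SARS, for serine, 9097 ± 109 against 17989 ± 3202 (log2 -0.97 ± 0.13). Naive library 1 held the highest value of the 6 for each of these 4 genes. Amino acid transporters showed 9 falls and 3 rises among 14 (median -0.58). SLC7A11, the cystine importer, was 667, 632 and 597 against 3337, 3022 and 3172 (log2 -2.33 ± 0.11), and SLC38A2, a carrier of small neutral amino acids, was 4267 ± 391 against 11728 ± 232 (log2 -1.46 ± 0.104). SLC7A6, a carrier of cationic and neutral amino acids, went the other way (log2 0.82 ± 0.14).

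Serine, glycine and folate enzymes split. Of 14 tested, 7 fell and 4 rose (median -0.26). PHGDH, which opens the serine pathway, was 6665, 6879.9 and 7678 with DMSO against 16946, 15432 and 12806 (log2 -1.08 ± 0.12), and the mitochondrial folate enzymes SHMT2 (log2 -1.001 ± 0.11), MTHFD2 (log2 -1.15 ± 0.13) and ALDH1L2 (log2 -1.13 ± 0.12) fell with it. SLC25A32, the mitochondrial folate carrier, rose from 547 ± 67.9 in naive cells to 1355 ± 109 (log2 1.31 ± 0.13). The count of rises here was 2 to 6 when single libraries were left out, with 6 only without naive library 1 and 2 without any of the other 5.

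Promoters of 4 genes are shown, each with a match to a searched motif, which is in capitals. They are from lists whose called members went mostly, though not always, in the same direction. Of 4 motifs searched, the 2 marked here are TGATGNAA, bound by ATF4 with a C/EBP partner, and CACGTG, the E-box bound by MYC with MAX. Both strands were searched, in windows of 250 bases before to 50 after the RefSeq start (build GRCh38.p14), of which up to 98 bases upstream of the start are printed, 5′ to 3′ in the direction of the gene. The ATF4 letters were found in the promoters of CHAC1 at chr15:40953221-40953314, 209 bases before the start, of ASNS at chr7:97872424-97872521 (minus strand), 68 bases before, and of AARS at chr16:70289641-70289738 (minus strand), 187 bases before. The E-box stood 10 bases before the start of UTP20, a ribosome assembly factor described below, at chr12:101280050-101280104.
CHAC1: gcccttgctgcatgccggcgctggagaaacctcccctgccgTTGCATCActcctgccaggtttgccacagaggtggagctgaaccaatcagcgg
ASNS: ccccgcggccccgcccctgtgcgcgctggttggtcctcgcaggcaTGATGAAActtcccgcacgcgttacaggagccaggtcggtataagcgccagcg
AARS: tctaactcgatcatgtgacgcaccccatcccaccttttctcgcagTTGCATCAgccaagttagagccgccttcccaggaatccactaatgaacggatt
UTP20: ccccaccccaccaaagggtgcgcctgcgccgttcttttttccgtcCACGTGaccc

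The ATF4 letters were in 6 of 13 tRNA synthetase promoters (46.2%), 3 of 12 transporter promoters (25%) and 4 of 23 promoters of the ATF4 list (17.4%), beside 1.77% of the 10855 tested genes with a promoter and 3.67% of all 27305 promoters. Among genes lower by at least 2-fold the share was 3.15% (28 of 890), and among those higher by at least 2-fold 1.93% (8 of 415). The E-box was in 9 of 25 promoters of the ribosome biogenesis list (36%), beside 9.91% of tested genes with a promoter and 7.43% of all promoters. DDIT3, SLC38A2 and WARS fell without the ATF4 letters in these windows, and NOP56, NOP16 and GRWD1 rose without the E-box. The STAT letters TTCNNNGAA were in 2 of 11 promoters of the JAK-STAT targets (18.2%), beside 6.37% of tested genes and 6.29% of those lower by at least 2-fold. The SREBP letters TCACNCCAC were in 1 of 17 promoters of cholesterol synthesis (5.88%), beside 1.1% of tested genes. A match describes the letters only, and the lists were drawn up from knowledge of ATF4 and MYC targets.

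Chaperones of the 2 main folding compartments went in different directions. Of 20 endoplasmic reticulum genes 10 fell and 1 rose (median -0.295, with 3 rises without naive library 1 and 0 without DMSO library 3), while 12 of 20 heat shock genes rose and 2 fell (median 0.35). XBP1, a transcription factor of the unfolded protein response, was 5378, 5775 and 5739.9 with DMSO and 21098, 16521 and 20206 in naive cells (log2 -1.77 ± 0.11). HERPUD1, a degradation factor of the reticulum membrane, was 421 ± 44.9 against 1615 ± 197 (log2 -1.94 ± 0.14), and P4HB, a protein disulphide isomerase, 34041 ± 2447 against 64063 ± 4382 (log2 -0.91 ± 0.11). All 3 fell. HSPA1A, the inducible cytosolic chaperone HSP70, was 831, 740.1 and 988 with DMSO against 184, 259.9 and 241 (log2 1.903 ± 0.17). Its near copy HSPA1B rose too (log2 1.21 ± 0.14), and reads of the pair may be exchanged between them. HSPE1, the mitochondrial co-chaperonin (log2 1.001 ± 0.12), and HSPH1, a nucleotide exchange factor of HSP70 (log2 0.97 ± 0.15), rose, while the co-chaperone DNAJB4 fell (log2 -1.06 ± 0.202). Leaving out DMSO library 1 or 2, or naive library 2 or 3, lowered the count of heat shock genes that rose from 12 to 7 and of those that fell from 2 to 1.

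Genes that follow glucose and PI3K signalling were lower with DMSO. All 6 MondoA targets fell (median -1.13). Without DMSO library 2 or naive library 2, 4 passed, and 5 did without DMSO library 1 or 3 or naive library 3. TXNIP, which restrains glucose uptake and thioredoxin, was 10481, 10337 and 10169 with DMSO and 63251, 62018 and 66977 in naive cells (log2 -2.63 ± 0.098), and values within each group were close together. HBP1, a transcriptional repressor (log2 -2.33 ± 0.16), KLF10 (log2 -1.24 ± 0.11) and ARRDC4, an arrestin-like relative of TXNIP (log2 -1.02 ± 0.101), fell as well. Of 16 FOXO and PI3K-repressed genes 11 fell and 0 rose (median -1.49); TXNIP is on both lists. CCNG2, a cyclin of resting cells, was 121, 156 and 152 against 999, 822 and 836 (log2 -2.62 ± 0.16). PIK3IP1, an inhibitor of PI3K, was 47.5 ± 12.5 against 265 ± 61.7 (log2 -2.47 ± 0.26), YPEL3 114 ± 23.03 against 644 ± 172 (log2 -2.47 ± 0.23), and S1PR1, a sphingosine phosphate receptor, 177 ± 17.9 against 982 ± 52.9 (log2 -2.46 ± 0.14). Each of these had all 3 DMSO values under all 3 naive values, and 7041 of the 7213 genes called likewise had no overlap between groups. INSR, the insulin receptor, from the list of IGF genes, was 813 ± 70.4 against 2790.1 ± 119.7 (log2 -1.78 ± 0.11).

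Hypoxia-type genes were among the largest falls, though the wider glycolysis and hypoxia list was less uniform, with 16 of 29 lower and 3 higher (median -0.38, 10 lower without DMSO library 1 or 2, and 1 higher without DMSO library 2 or 3 or naive library 3). CA9, a carbonic anhydrase, was 18.7, 8.21 and 20.6 with DMSO and 318, 254 and 290.4 in naive cells (log2 -4.19 ± 0.33). BNIP3, a mitophagy receptor, was 74.9, 70.6 and 56.9 against 1314, 803 and 905 (log2 -3.86 ± 0.21), with naive library 1 the highest. NDRG1 (log2 -1.94 ± 0.12), the collagen prolyl hydroxylase P4HA1 (log2 -1.73 ± 0.14) and the glucose transporter SLC2A3 (log2 -1.62 ± 0.12) fell by less. LOXL2, a matrix crosslinking enzyme outside the lists, was 112, 145 and 134 against 1939.8, 1921 and 2042 (log2 -3.92 ± 0.14).

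Of 18 p53 targets 9 fell and 4 rose (median -0.37, and 2 rose without DMSO library 2 or 3), and of 14 BCL2 family genes 8 fell and 2 rose (median -0.63, and 1 rose without DMSO library 2 or 3). TP53INP1, an autophagy and cell death factor, was 68.4, 50.1 and 68.8 with DMSO and 711, 1134 and 1063 in naive cells (log2 -3.92 ± 0.21). The killer protein gene BBC3 (PUMA), on both lists, was 128 ± 23.1 against 727 ± 166 (log2 -2.48 ± 0.21), and the death receptor TNFRSF10B was 469.6 ± 41.6 against 1949 ± 299 (log2 -2.04 ± 0.14). PMAIP1 (log2 -1.03 ± 0.13) and BMF (log2 -0.86 ± 0.16), both pro-apoptotic, fell. AEN, a nuclease, rose (log2 0.96 ± 0.11), as did the CDK inhibitor gene CDKN1A (log2 0.42 ± 0.13), which did not pass without DMSO library 2 or 3 or naive library 2 (adjusted p = 0.0584 to 0.0753).

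Ribosome assembly and the ribosome's own proteins moved apart. Of 30 ribosome biogenesis genes 22 rose and 1, LYAR, fell (median 0.65), and the count of rises was 21 to 25 when single libraries were left out. UTP20, a scaffold of the small subunit precursor, was 3141, 3005 and 2795 with DMSO and 1164, 1058 and 1065 in naive cells (log2 1.44 ± 0.11). NOP16 (log2 1.17 ± 0.15), GRWD1 (log2 1.07 ± 0.13), NOP56 (log2 0.92 ± 0.11) and PNO1 (log2 0.91 ± 0.16), all factors of ribosome assembly, rose by a smaller amount. Of 30 cytosolic ribosomal protein genes 19 fell and 1 rose (median -0.56), with 2 rises without naive library 1 and 0 without DMSO library 1 or 3 or naive library 2 or 3. The summed level of the list was 420100 to 448600 with DMSO and 585100 to 797200 in naive cells. RPL13A was 18922, 23136 and 26800.2 against 83584, 72569 and 89344 (log2 -1.84 ± 0.14), RPL3 22089 ± 839 against 51118 ± 8298 (log2 -1.199 ± 0.13) and the elongation factor EEF1A1 71504 ± 5306 against 163662 ± 29132 (log2 -1.18 ± 0.14). These genes have many processed pseudogenes of near-identical sequence, so how reads were assigned among the copies is uncertain.

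MYC mRNA itself was lower with DMSO, at 14255, 15572 and 17532 against 22064, 23033 and 25072 (log2 -0.57 ± 0.11). Of 12 genes of its network 9 fell and 1 rose (median -0.68), with 0 rises without DMSO library 1 or 3 or naive library 2 and 2 without naive library 1. Among them were the MYC antagonists MXD4 (log2 -1.91 ± 0.25), MXD1 (log2 -1.304 ± 0.12) and MXI1 (log2 -1.04 ± 0.18), and MXD1 was 648 ± 29.8 with DMSO against 1603 ± 109 in naive cells. MYCL1, the L-MYC gene, had a larger fall, at 13.02, 18.9 and 18.2 with DMSO against 328, 259.9 and 337 (log2 -4.14 ± 0.25). MYC and 3 of its antagonists thus all had lower mRNA levels with DMSO.

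**Figure D2:**
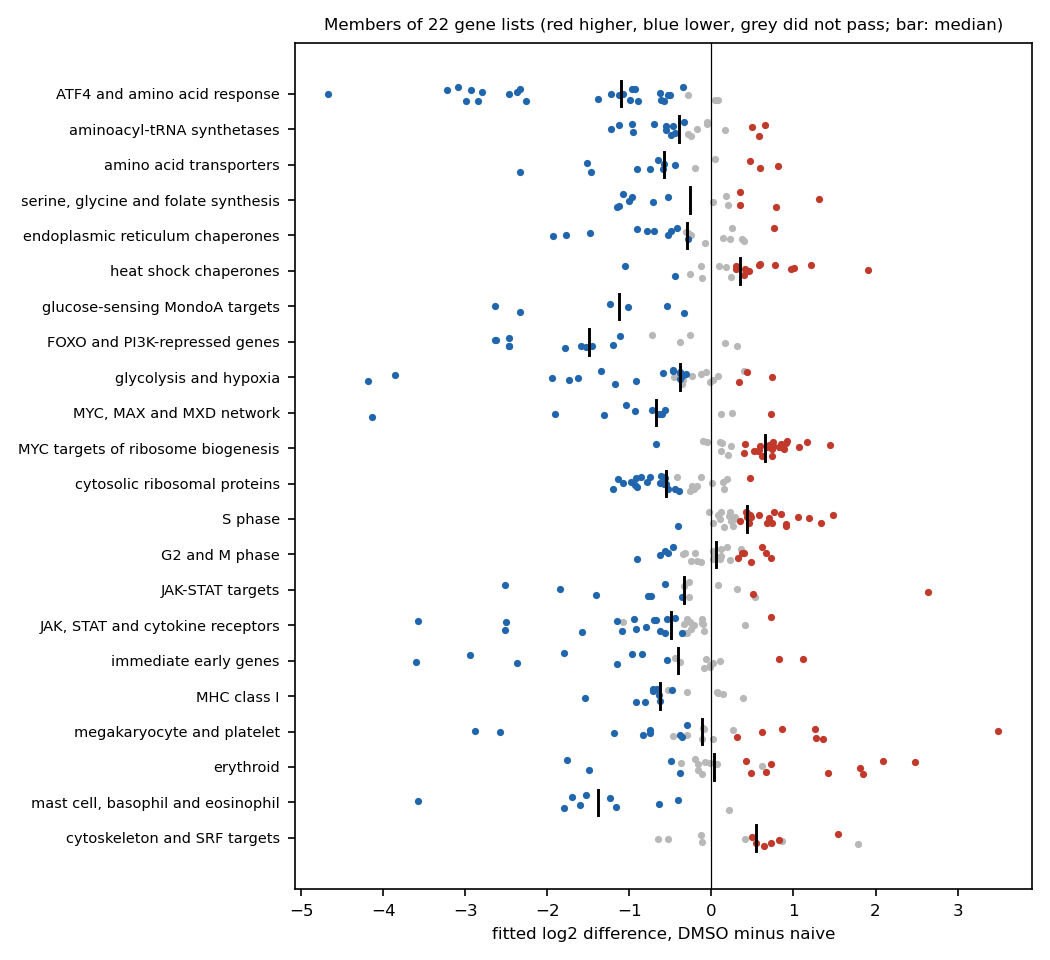
Each point is a tested member of one of 22 gene lists (rows); the x axis is its fitted log2 difference, DMSO minus naive. Red members were called higher, blue lower, grey did not pass, and the black bar is the list's median, for example -1.11 for the ATF4 list and 0.65 for ribosome biogenesis, beside 0.0044 over all genes tested.

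S phase genes were more often higher than lower with DMSO. Of 32 tested, 19 rose and 1, CDT1, fell (median 0.43), with 14 to 23 rises when single libraries were left out and no fall without DMSO library 1 or 2 or naive library 2 or 3. CCNE2, a cyclin of S phase entry, was 466, 519 and 402 with DMSO and 171, 137 and 191 in naive cells (log2 1.48 ± 0.18). RRM2, a subunit of ribonucleotide reductase, was 4606, 4424 and 4209 against 2149.6, 1824 and 1832 (log2 1.19 ± 0.11), and the replication factors GINS1 (log2 1.34 ± 0.15) and MCM10 (log2 1.06 ± 0.11) and the transcription factor E2F2 (log2 0.91 ± 0.11) rose too. G2 and M phase genes were mixed, with 7 of 28 higher (25%) and 5 lower (17.9%) and a median of 0.05. These shares were like those of all genes tested, 18.9% and 22.5%. Without DMSO library 2 or naive library 2 or 3, 4 were higher, and without DMSO library 2 or 3, 3 were lower. CDC20, an activator of the anaphase promoting complex, rose (log2 0.72 ± 0.12) and the phosphatase gene CDC25C fell (log2 -0.91 ± 0.18). The CDK inhibitor CDKN1B (p27) was 789, 819 and 845 with DMSO against 1955, 1816 and 1848 (log2 -1.19 ± 0.11), and CDKN1C (p57) was 14.8 ± 1.58 against 95.3 ± 19.1 (log2 -2.59 ± 0.302). In bulk RNA, more cells in a phase and more of a transcript per cell cannot be told apart, nor fewer cells of a type and less RNA per cell.

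In polyamine and nucleotide synthesis 4 of 16 rose and 1 fell (median 0.19, and 8 rose without naive library 1). The share that rose, 25%, was near the 18.9% of all genes tested, and 6.25% fell beside 22.5%. SRM, which makes spermidine, rose from 1369.7 ± 53.6 to 3383 ± 615 (log2 1.29 ± 0.14), and PPAT, the first enzyme of purine synthesis, rose (log2 0.95 ± 0.12). SAT1, which breaks polyamines down, was 1857, 1755 and 1817 with DMSO and 7159, 6741 and 6725 in naive cells (log2 -1.92 ± 0.097). In this pathway a synthetic and a degrading enzyme therefore moved in opposite directions.

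JAK-STAT output did not move as a unit. Of 15 targets 7 fell and 2 rose (median -0.33, and 1 rose without any single library other than naive library 2). PIM1, a survival kinase, was 8558, 9511 and 9936 with DMSO and 32916, 32870.1 and 34503 in naive cells (log2 -1.84 ± 0.102), and its relative PIM2 was 2394 ± 354 against 6279.7 ± 315 (log2 -1.401 ± 0.12). IL2RA, the alpha chain of the interleukin 2 receptor, was 213, 214 and 226 against 1309, 1186 and 1254 (log2 -2.52 ± 0.13). SOCS2, a feedback inhibitor, fell (log2 -0.77 ± 0.12). LRRC32, a docking protein for latent TGF-beta, rose from 79.97 ± 8.25 to 503 ± 61.7 (log2 2.63 ± 0.18). The feedback genes CISH and SOCS3, also among these targets, were picked for naming after their values were seen. CISH was 1104, 1272 and 1371 with DMSO and 1034, 1278 and 1222 in naive cells, with overlapping groups (log2 0.08 ± 0.13, adjusted p = 0.631). SOCS3 was 3165 ± 465 against 4021 ± 266 (log2 -0.35 ± 0.12, adjusted p = 0.039), a fall that did not pass in 10 other settings, among them without DMSO library 1 or 2 or naive library 2 or 3 (adjusted p = 0.0952 to 0.159).

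JAK2, STAT5A and STAT5B had lower mRNA levels with DMSO, with log2 differences between those of SOCS3 and PIM1. JAK2 was 2725, 2628 and 2356 with DMSO and 4382, 3747 and 3744 in naive cells (log2 -0.62 ± 0.11), and STAT5B was 5705, 5849.9 and 5925 against 12343, 12204 and 12774 (log2 -1.09 ± 0.09), while STAT5A fell by less (log2 -0.68 ± 0.11). JAK1 (log2 -0.26 ± 0.096, adjusted p = 0.0513) and STAT3 (log2 -0.22 ± 0.096, adjusted p = 0.0921) did not pass, though for each the 3 DMSO values were under the 3 naive values, and both passed without naive library 1 (adjusted p = 0.0469 and 0.0306). Of 30 JAK, STAT and receptor genes 16 fell and 1 rose (median -0.49). IL5RA, the interleukin 5 receptor, was 35.8, 32.03 and 60.9 against 527, 499 and 484 (log2 -3.58 ± 0.24), IL4R was 2600.01 ± 307 against 7716 ± 369 (log2 -1.57 ± 0.11), and KIT, the stem cell factor receptor, was 15422 ± 540.2 against 22816 ± 1619 (log2 -0.56 ± 0.102).

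Several ERK-responsive genes were much lower with DMSO. EGR1, an immediate early transcription factor, was 833, 1020.2 and 1119.7 with DMSO and 7725, 7169 and 7881 in naive cells (log2 -2.95 ± 0.12), and its relatives EGR2 (log2 -3.599 ± 0.32) and EGR3 (log2 -1.796 ± 0.26) fell too. DUSP6, a phosphatase that feeds back on ERK, was 115, 102 and 131 against 816, 729 and 718 (log2 -2.696 ± 0.16), and ETV5, an ETS factor, was 208 ± 12.1 against 1080.2 ± 32.02 (log2 -2.37 ± 0.13). Their lists were less uniform, with 8 of 18 immediate early genes lower and 2 higher (median -0.41, and 1 higher without DMSO library 1 or 3), and 6 of 16 MAPK output genes lower and 2 higher (median -0.17, and 0 higher without DMSO library 1 or 2, 1 without naive library 2 or 3). ATF3, which the ATF4 list also holds, was 131 ± 69.1 against 624 ± 59.7 (log2 -2.37 ± 0.29).

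**Figure D3:**
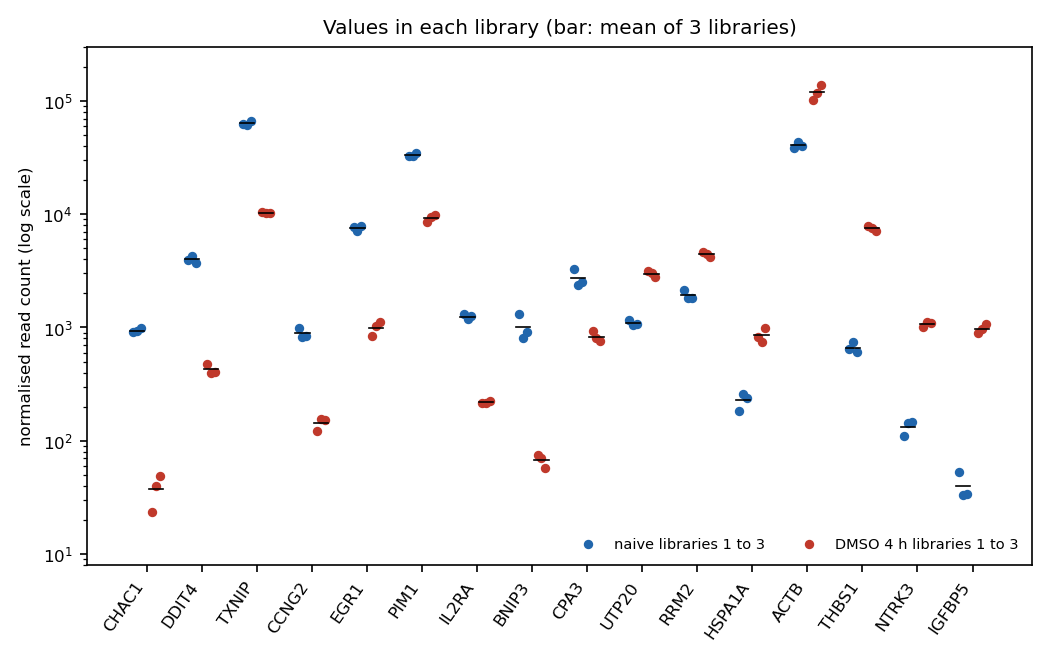
Points are the 3 naive (blue) and 3 DMSO (red) libraries for 16 genes described in the text, on a log axis of normalised read count, and bars are group means. All 16 were called and were chosen after their values were seen. The groups do not overlap for any of them, as for 7041 of the 7213 genes called and 9136 of the 17434 tested. TXNIP, for example, was 10169 to 10481 with DMSO against 62018 to 66977 in naive cells.

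Lineage genes were split within the megakaryocyte and erythroid lists. Of 23 megakaryocyte and platelet genes 7 rose and 9 fell (median -0.12, and 4 rose without naive library 3). THBS1, the matrix glycoprotein thrombospondin 1, was 7906, 7535 and 7064 with DMSO and 645, 744 and 606 in naive cells, 11.3-fold higher (log2 3.498 ± 0.11, limma adjusted p = 3.97e-08). GP5, a subunit of the von Willebrand factor receptor, rose from 338 ± 40.2 to 866 ± 36.2 (log2 1.36 ± 0.14). VWF, von Willebrand factor, was 50.5, 43.5 and 49.03 with DMSO against 343, 361 and 369 (log2 -2.88 ± 0.19), and F13A1, a clotting transglutaminase, was 99.2 ± 20.2 against 591 ± 26.9 (log2 -2.58 ± 0.18). Of 22 erythroid genes 9 rose and 4 fell (median 0.03). GYPB, a red cell surface glycoprotein, was 191 ± 13.7 with DMSO against 45.9 ± 15.5 (log2 2.09 ± 0.27), HEMGN 251 ± 13.8 against 70.2 ± 16.7 (log2 1.85 ± 0.22) and the alpha globin HBA2 692 ± 96.8 against 196 ± 25.1 (log2 1.81 ± 0.16), which shares near-identical sequence with HBA1. HBB, the beta globin, had few reads and fell (log2 -1.76 ± 0.47).

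Mast cell, basophil and eosinophil genes were lower with DMSO in 9 of 10 (median -1.38, IL5RA among them). There were 7 falls without DMSO library 1 or 2 or naive library 2 or 3, and 8 without DMSO library 3. Without naive library 1 there was 1 rise. CPA3, a mast cell protease, was 928, 805 and 763 with DMSO and 3269, 2374 and 2534 in naive cells (log2 -1.702 ± 0.14). TPSB2, a tryptase with a near copy in TPSAB1, was 186 ± 43.5 against 555 ± 46.05 (log2 -1.597 ± 0.18), and MS4A2, a chain of the IgE receptor, was 20.2 ± 4.66 against 71.4 ± 2.103 (log2 -1.800 ± 0.31). ITGAM, an integrin of myeloid cells, was 1982 ± 184 against 4757 ± 16.99 (log2 -1.27 ± 0.11). ERG, a transcription factor of stem cells and megakaryocytes, was 2258 ± 72.4 against 6732 ± 408 (log2 -1.57 ± 0.100). Of 15 MHC class I genes 9 fell and 0 rose (median -0.62, and 1 rose without naive library 3), HLA-E from 32020.3 ± 2199.8 to 11006 ± 968 (log2 -1.54 ± 0.11) and HLA-B from 96213 ± 2586 to 51158 ± 4959 (log2 -0.92 ± 0.12), with reads of similar HLA genes uncertain in their assignment.

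Of 13 genes of the actin cytoskeleton 6 were higher with DMSO, 0 were lower and 7 did not pass (median 0.54). With a term for libraries that were sequenced again 3 were higher, and 1 was lower without naive library 1 or 3. ACTB, which encodes beta actin and is often used as a reference gene, was 102544, 118266 and 138463 with DMSO and 38267, 43849 and 40157 in naive cells, 2.94-fold higher (log2 1.55 ± 0.13). The lowest DMSO library was more than 2 times the highest naive library, and ACTB has processed pseudogenes among which reads may be shared. FLNA, which crosslinks actin, was 73218 ± 11631 against 43928 ± 4224 (log2 0.73 ± 0.14), ACTG1, gamma actin, 60248 ± 4673 against 38752 ± 3897 (log2 0.64 ± 0.12), and SRF, the transcription factor that follows free actin, 5525 ± 762 against 3122 ± 480.3 (log2 0.83 ± 0.14). With the same term FLNA (adjusted p = 0.0733) and ACTG1 (adjusted p = 0.0522) did not pass. VIM, an intermediate filament gene that the stroma list holds, was 4409.96 ± 135 against 13537 ± 1658 and fell (log2 -1.61 ± 0.11). It made up most of that list's summed level of 6367 to 7000 with DMSO and 15610 to 19800 in naive cells, and the macrophage gene CD163 was at most 0.791 in any of the 6.

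TGF-beta, BMP and ID genes were mixed, with 5 of 14 higher and 3 lower (median -0.05). The inhibitory SMAD6 rose from 148 ± 40.8 to 842 ± 86.8 (log2 2.53 ± 0.21), and ID4 (log2 1.22 ± 0.17), ID3 (log2 1.11 ± 0.23) and SKIL (log2 1.05 ± 0.13) rose. Metal-binding genes were more often lower, with 7 of 12 iron and metallothionein genes falling and 1 rising (median -0.68). MT2A, a metallothionein, was 1398 ± 215 with DMSO against 4253 ± 202 (log2 -1.62 ± 0.13), MT1G was 22.9 ± 5.01 against 118 ± 10.6 (log2 -2.34 ± 0.28), and SLC40A1, the iron exporter ferroportin, was 8773 ± 462 against 16907 ± 1823 (log2 -0.94 ± 0.11). Cholesterol synthesis had 3 of 24 higher and 7 lower (median 0.07, and 6 higher without naive library 1), with ACAT2, a thiolase, higher (log2 0.96 ± 0.13), a share of calls like that of all genes. Antioxidant genes of NRF2 had 7 of 18 higher and 4 lower (median 0.25, and 4 higher without DMSO library 1 or naive library 2 or 3), among them NQO1 (log2 0.86 ± 0.21) and SRXN1 (log2 0.76 ± 0.12) higher and SLC7A11 lower, as above.

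The largest rises included many genes outside the lists. TMEM132E, a membrane protein gene of neural tissue, was 439.6, 504 and 565 with DMSO and 4.69, 4.31 and 5.096 in naive cells (log2 6.46 ± 0.26), where each naive library held 4 to 5 reads. IGFBP5, a secreted binding protein of insulin-like growth factors that the list of IGF genes holds, was 897, 968 and 1064 against 52.7, 33.4 and 33.6 (log2 4.61 ± 0.21). NTRK3, a neurotrophin receptor, was 1005, 1114 and 1089 against 109, 143 and 146 (log2 3.01 ± 0.16), and SPNS2, the sphingosine phosphate exporter, was 309, 435 and 454 against 32.8, 39.9 and 55.03 (log2 3.21 ± 0.25). In all of these the lowest DMSO library was many times the highest naive library. The other 7 of the 12 largest rises were ITLN2, ANKRD30BL, DCT, PCLO, PDE5A, RNFT2 and GPR98, with log2 differences from 2.84 (GPR98) to 4.204 (ITLN2) and naive means of 39.3 or less. DCT, a melanin synthesis enzyme, was 249.96 ± 12.5 with DMSO against 20.1 ± 7.598, and PDE5A, a phosphodiesterase of cyclic GMP, was 182 ± 19.5 against 25.7 ± 12.96.

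Among the largest falls outside the lists were SDK2, an adhesion protein gene, at 12.2, 15.6 and 6.33 with DMSO against 345, 449.6 and 421 (log2 -5.11 ± 0.32), and ERVFRD-1, the envelope gene of an endogenous retrovirus known as syncytin 2, at 10.6, 10.7 and 18.2 against 252, 294 and 203 (log2 -4.17 ± 0.296). PNCK, a calmodulin-dependent kinase gene, varied most within groups, at 1.63, 2.46 and 15.8 with DMSO and 101, 205 and 169 in naive cells (log2 -4.84 ± 0.61). COL20A1, a collagen, was 8.91 ± 4.27 against 131 ± 41.2 (log2 -3.76 ± 0.396).

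Both control states serve as the reference of other groups in the series, so levels in the other 6 groups are given side by side as means of 3 libraries, with no test. Library 2 of the CYT387 line stood apart, with a summed squamous marker level of 144700 and a summed stroma and macrophage level of 232300, the highest of the other 18 libraries for both. Without it the CYT387 mean was 1188 for CHAC1, 12961 for DDIT4, 12559 for EGR1, 1569 for CISH and 59433 for ACTB, beside the values with it below. CHAC1 was 12.1 with INC424 for 4 h and 3.88 for 48 h, both under the DMSO level of 37.4 and the naive level of 937, and in the persistent lines it was 118 (BMS911543), 1061 (CYT387), 2669 (INC424) and 720.3 (SAR302503). DDIT4 was 428 with DMSO, 1449.9 and 996 with INC424 for 4 h and 48 h, 3988 in naive cells and 1411 to 13434 in the lines. TXNIP was lowest with DMSO, at 10329, next lowest with INC424 for 4 h at 18258, and at 64116 after 48 h it was level with naive cells at 64082. CCNG2 was 143 with DMSO and between 429 and 1148 in the other 7 groups. UTP20 was 2981 with DMSO and between 966 and 1736 in the other 7.

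CISH, close in the 2 control states, was 226 with INC424 for 4 h, 702 after 48 h and between 1330.5 and 1393 in the lines (1374 in the CYT387 line). EGR1 was 65.1 with INC424 for 4 h against 991 with DMSO and 7592 in naive cells, and ranged from 167 (BMS911543) to 11589.5 (CYT387) in the lines. ACTB was lowest in naive cells, at 40758, and highest with DMSO, at 119758, with the other 6 groups between 48424 and 83355 (76305 in the CYT387 line). THBS1 was 537 in the SAR302503 line, near the naive level of 665, and between 3003 and 24499 in the groups other than these 2. For CHAC1, UTP20, TXNIP and ACTB the size of a difference from a control therefore depends on which of the 2 control states is the reference. The direction can depend on it too. For ACTB the means of the other 6 groups were above naive cells and below DMSO. CHAC1 in the BMS911543 and SAR302503 lines was above DMSO and below naive cells.

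**Figure D4:**
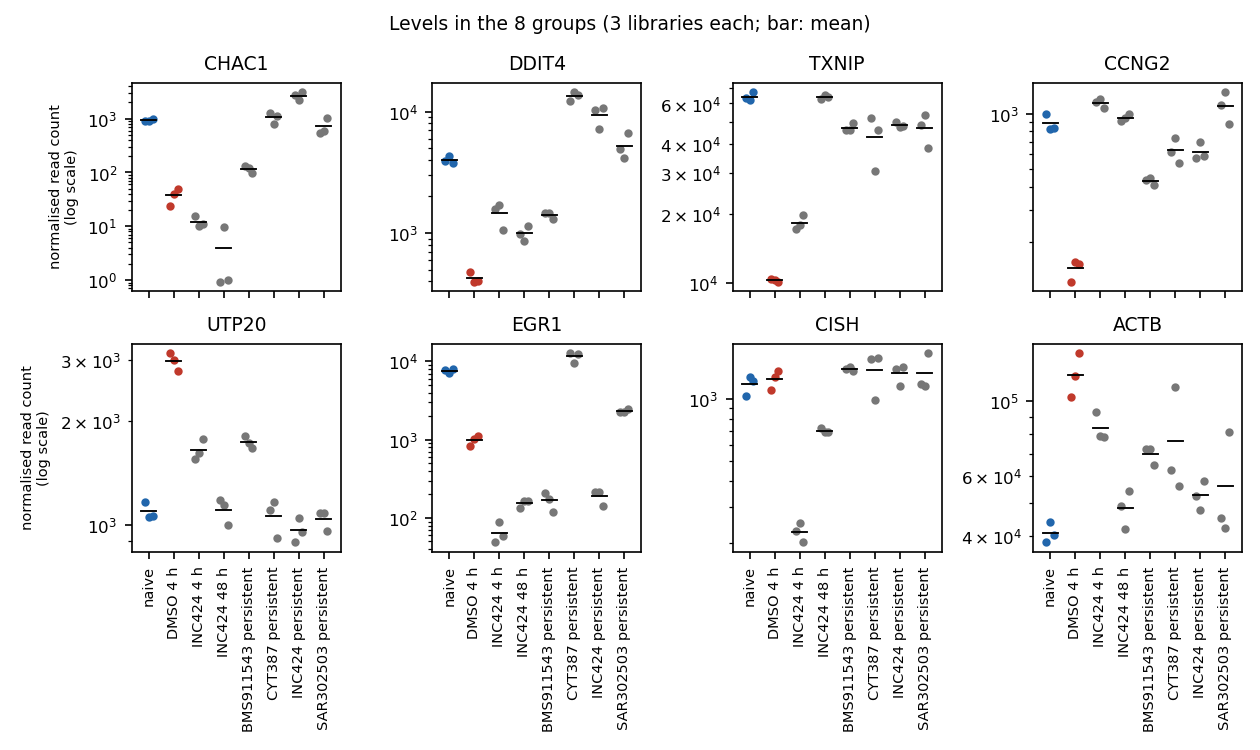
Each panel is a gene and each point a library of one of the 8 groups on a log axis of normalised read count, with group means as bars, naive cells in blue and DMSO in red. DMSO has the lowest mean of the 8 groups for DDIT4, TXNIP and CCNG2 and the highest for UTP20 and ACTB, while CISH overlaps between the 2 control states.

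GC content was more strongly correlated with differences between single libraries of a group than with the difference between groups. For transcript length this held for some pairs of libraries only. Across 14661 genes with a transcript in GENCODE 29 (84.1% of those tested) the difference between groups had a Spearman correlation of -0.046 with GC content and -0.102 with length, while single pairs of libraries within a group reached -0.605 with GC content (DMSO library 1 minus library 3). These are across genes and are a description only. DMSO libraries 2 and 3 were sequenced again for more reads and no naive library was. With a term for this, the comparison rests on DMSO library 1 against the naive libraries, and 3653 genes were called, 1367 higher and 2286 lower.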

How the data were processed

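The deposited table holds a normalised signal for 25082 genes. The authors obtained it by dividing each library's read counts by 1 factor. The submitters' processing notes name BWA 0.7.5.1, HTSeq 0.5.3p3, DESeq 1.10.1, hg19 and GRCh37, without roles. All values (100%) were whole multiples of 1 step per library within 0.01, which gave the whole reads used for depth, edgeR and DESeq2; in 3 libraries outside this comparison the step is within 0.01 of 1 and shows nothing.

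After adding 1 and taking log2, which understates changes of low genes, the 17434 genes at 10 or more in at least 3 of the 6 libraries were tested two-sided in limma 3.58.1 (R 4.3.3), with a trended empirical Bayes prior, 4 residual degrees of freedom and Benjamini-Hochberg adjustment over all genes at a threshold of 0.05. Simulated counts tested the script. The 48 gene lists (887 entries, 868 in the table, 804 tested) and the members compared were chosen with earlier results of these data known. Named genes are the 12 largest rises and falls that have a symbol, average at least 50 and do not overlap, up to 5 members per list with the largest called change or 2 of highest mean, 8 signalling genes, and the 3 called genes of at least 2-fold change with the highest mean. ATF4, ASNS, CISH, SOCS3, LYAR, CDT1, the marker genes and the genes picked for plots and promoters were chosen after their values were seen. Some genes that the rule names are not reported here.

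Other settings used a pseudocount of 0.5 or 10, all genes or those at 50 or more, TMM or upper-quartile scaling, a prior without trend or a robust one, all 24 libraries or 23, replicate number as a block, a term for the repeat sequencing, edgeR 4.0.16 or DESeq2 1.42.0 on whole reads, and each library left out. Promoters are RefSeq's, since the table gives no coordinates.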

Additional observations from a re-analysis of the deposited data

How the results depend on the processing

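Genes called numbered 5139 to 8782 when single libraries were left out (2141 to 4092 higher, 2998 to 4690 lower; 2257 to 2842 at a change of at least 2-fold), with the fewest without DMSO library 2 and the most without naive library 1. The run-again term left 3653 genes, 1367 higher and 2286 lower. It leaves DMSO library 1 alone against the naive libraries, and the part of fewer replicates or of the repeat sequencing in the lower count was not tested. Replicate numbers did not pair the libraries (correlations of deviations 0.096, -0.099 and 0.062), and a replicate block gave 8062 genes. Upper-quartile scaling gave 3809 higher and 3478 lower and TMM 3515 and 3679, so the split between rises and falls depends on the scaling, while the median shifted by at most 0.064. edgeR called 7252 genes and DESeq2 7355. In each of the 20 other settings, every gene called there and in the reported fit had the same direction. Of 148 named genes followed across the settings, 134 kept their side of the threshold in all of them. Some named genes were not among those followed, such as LYAR, CDT1, ANKRD30BL, PCLO, GATA1 and TAL1. In the fit of all 24 libraries, KIT (adjusted p = 0.0959), EGR3 (0.0501), HEMGN (0.185), HSPA1A (0.065), ID3 (0.069), NQO1 (0.405), CDKN1A (0.232), HIST1H1C (0.0975) and SOCS3 (0.106) did not pass and 5278 genes were called. Without library 2 of the CYT387 line that fit called 7411 genes, and of these 9 named genes NQO1 alone (0.0735) did not pass. With the run-again term ACTG1 (0.0522), CDC25C (0.0641), FLNA (0.0733), ID3 (0.0726) and CDKN1A (0.221) did not pass. Genes of few reads, such as TMEM132E in naive cells, have folds that rest on counts of 4 or 5 reads.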

Other observations

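Several lists outside the account above showed single strong members. Of 32 genes of oxidative phosphorylation 10 rose and 4 fell (median 0.14, and 6 rose without DMSO library 2), and small subunits of the same chain went both ways. COX7B, a subunit of cytochrome oxidase, was 1764 ± 149 with DMSO against 724 ± 86.4 in naive cells (log2 1.29 ± 0.13), while UQCRB, of the bc1 complex, was 3441 ± 369 against 6785 ± 1437 (log2 -0.96 ± 0.15). Of 13 circadian clock genes 6 fell and 3 rose (median -0.13, and 1 rose without DMSO library 2 or naive library 2). Of 10 glucocorticoid targets 4 fell and 1 rose (median -0.09). BHLHE40, a clock repressor, was 2645 ± 135 against 6681 ± 351 (log2 -1.34 ± 0.100), PER1 fell (log2 -0.79 ± 0.15), and TSC22D3, a classical glucocorticoid target, was 156 ± 14.2 against 565 ± 63.7 (log2 -1.85 ± 0.16).

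Lysosome and autophagy genes had 10 falls and 5 rises among 22 (median -0.34). The share of rises, 22.7%, was near the 18.9% of all genes tested, and 45.5% fell beside 22.5%. There were 6 falls without DMSO library 2, 2 rises without DMSO library 2 or 3, and 3 rises without naive library 2 or 3. GAA, the lysosomal alpha glucosidase, was 243 ± 51.5 with DMSO against 899.7 ± 154 (log2 -1.89 ± 0.18). In the list of IGF genes, where 5 of 10 fell (median -0.49), IGFBP5 rose as described, and IGFBP4 (log2 -1.16 ± 0.12) and IGFBP7 (log2 -1.42 ± 0.29) fell. Of 13 replication-dependent histone genes, whose mRNA mostly lacks a poly(A) tail, 4 rose and 1 fell (median 0.73, and 2 rose without DMSO library 2), with HIST1H1C at 481 ± 47.9 against 229 ± 35.02 (log2 1.07 ± 0.16). Of 13 genes of the mitochondrial genome 4 rose (median 0.19), but 11 rose without naive library 1, 1 without naive library 3 or without any single DMSO library, and 0 without naive library 2.

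A pattern looked for after the values were seen concerns pseudogenes, by RefSeq's classes for the 83.1% of tested genes that matched. Of 993 pseudogenes, 309 were higher with DMSO (31.1%) and 56 lower (5.64%), with a median log2 difference of 0.535. Of 12836 protein-coding genes, 2291 were higher (17.8%) and 3405 lower (26.5%), with a median of -0.067. By mean level, pseudogenes had medians of 0.621 (up to 30), 0.577 (30 to 100), 0.452 (100 to 300) and 0.5 (300 to 1000), and 0.077 over 1000, beside -0.144 to -0.011 for protein-coding genes. Across the alternatives 128 to 367 pseudogenes were higher and 22 to 57 lower. Pseudogenes took 1.217% to 1.355% of the normalised total in DMSO libraries, 0.9252% to 1.212% in naive libraries and 0.6998% to 1.512% in the other 18. Many share near-identical sequence with their parent genes, several of which (ribosomal protein genes, EEF1A1) were lower with DMSO and at least one of which (ACTB) was higher, and the part of read assignment or of the repeat sequencing of 2 DMSO libraries in this was not tested.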
